A study of Mus musculus with 3 samples.

Results

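The cells described here are 776 of 5023 sorted mouse germ cells whose leading marker trio was Klk1b3, Glul and Bpifa3. They were chosen by their measured values: the natural log values of the 3 genes of each of 12 marker trios were averaged in every cell, each average was scaled to a z-score over all cells, and a cell was kept when the Klk1b3 trio had the highest z-score. The rule took 294 of 1418 cells of the control library (20.7%, exact Clopper-Pearson 95% interval 18.7 to 22.9), 211 of 1732 of the hairpin 1 library (12.2%, 10.7 to 13.8) and 271 of 1873 of the hairpin 2 library (14.5%, 12.9 to 16.1). Intervals here and below cover counting error only. The trio's own genes differed between the libraries, so these shares describe the choice and were not compared between groups.

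The study asked what the long non-coding RNA gene Gm4665 does in sperm formation. ICR mice were injected in both testes at postnatal day 21, with AAV9-shCtrl-RFP on 1 side and AAV9-shRNA-RFP against Gm4665 on the other. AAV9 is a viral vector, the short hairpin RNA it carries lowers a chosen transcript, and RFP is a red fluorescent protein by which reached cells are sorted. The 3 groups were the control hairpin (shCtrl), hairpin 1 (Gm4665-shRNA1#) and hairpin 2 (Gm4665-shRNA2#), all with the same strain, vector, injection age and sort. Somatic cells were removed and RFP-positive germ cells were collected by FACS before droplet sequencing of RNA 3' ends. Cells of 3 mice stood for each group, but each group was 1 library and no cell was tied to a mouse, so no test between groups could be made and no spread between animals is known. The gate kept infected cells only, and the knockdown was therefore judged in cells that carried a vector. Values for the 3 libraries follow the order control, hairpin 1, hairpin 2.

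The chosen cells held 7277859, 4189618 and 6320082 unique molecular identifiers (UMIs, counted RNA molecules) in all. Their median depth was 21952, 16520 and 20724 UMIs, and their median number of genes was 2830, 2702 and 3035. Levels are CPM, counts scaled to 1000000, of the UMIs summed over the chosen cells of a library, with exact Poisson 95% intervals. A CPM is a share of the RNA counted, so a higher share can also follow from less of other RNA. Of all cells, 18 had a barcode that also occurred in another library, and 5 of these were among the chosen cells. The libraries also differed in white blood cell RNA: the Cd52 trio, a leukocyte marker set, led 20, 94 and 181 cells.

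In the last phase of sperm formation, the round spermatid elongates and its nucleus condenses. Histones are replaced first by transition proteins and then by protamines, small arginine-rich proteins that pack the DNA tightly. Transcription stops as the chromatin closes, and condensing spermatids rely on stored messenger RNAs that are translated long after their synthesis, while the tail, the mitochondrial sheath and the acrosome are completed. Klk1b3 is a kallikrein-type serine protease gene, Glul encodes glutamine synthetase, and Bpifa3 belongs to a family of lipid-binding secreted proteins.

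Gm4665, the target of the hairpins, was lower with both hairpins in the Klk1b3-trio cells. Its level was 360 CPM in control cells (346 to 374), 100.5 CPM with hairpin 1 (91.1 to 111) and 214 CPM with hairpin 2 (203 to 226). This is 0.279 times the control (0.251 to 0.310) with hairpin 1 and 0.595 times (0.556 to 0.635) with hairpin 2. The intervals of the 3 libraries did not overlap, and the hairpin 2 library sat between the others. At least 1 UMI of Gm4665 was seen in 94.6%, 65.4% and 85.6% of the cells, and after thinning each cell to 7000 UMIs in 73.8%, 42.7% and 66.4%. The Cd52-trio cells, which should lack a spermatid RNA, had a UMI in 65.0%, 9.57% and 14.9% of their cells at median depths of 14002, 9700 and 13294 UMIs, so part of the signal in any cell can be free RNA. Their levels, 57.9, 10.7 and 10.2 CPM, were below those of the Klk1b3-trio cells in every library.

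Gm4665 lies on the minus strand at chr9:115180404-115186058 (mm10, GENCODE vM21, an antisense gene) inside the locus of Osbpl10, a plus-strand gene at chr9:114978569-115232225 and encodes an oxysterol-binding protein. Osbpl10 measured 98.9, 96.2 and 82.3 CPM. Ip6k1, an inositol phosphate kinase gene, measured 71.3, 62.5 and 52.8 CPM. Neither gene was 2-fold from the control with either hairpin.

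The level of Gm4665 differed with how much transition protein RNA a cell held. Among control cells it was 629 CPM in the chosen cells with at least 4% of their UMIs from Tnp1 and Tnp2, 247 CPM in those with 1.5% to 4%, and 101 CPM in those under 1.5%. With hairpin 1 the same ranges held 174, 90.5 and 25.6 CPM, which is 0.276, 0.367 and 0.254 times the control. With hairpin 2 they held 297, 182 and 64.8 CPM, or 0.471, 0.736 and 0.643 times the control. Both hairpin libraries were thus below the control in each range. The cells led by the Tex37 trio, the spermatids most like these, had 631, 135 and 222 CPM, and the cells led by the Faiml trio, another spermatid group, had 486, 97.7 and 143 CPM.

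**Figure D1:**
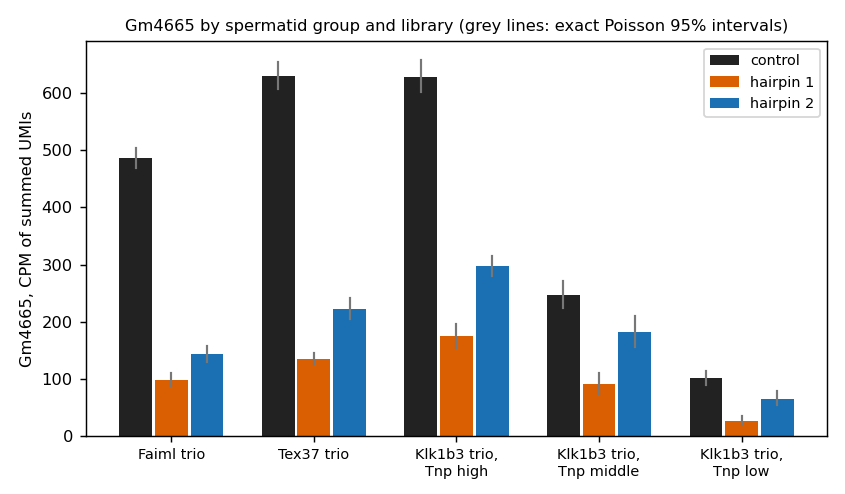
Gm4665 level in CPM of summed UMIs (linear axis from 0) by spermatid group and library, with grey lines for exact Poisson 95% intervals. Within the Klk1b3-trio cells the control goes from 629 CPM in the high to 101 CPM in the low range of transition protein RNA, and both hairpin libraries lie below it in each range.

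The trio genes were measured in nearly all chosen cells, as the rule required, and their values are a description. Klk1b3 (chr7:44198191-44202352, plus strand) measured 301, 218 and 346 CPM, with a median of 6, 3 and 7 UMIs in a cell. Glul (chr1:153899944-153909723, plus strand) measured 1588, 1445 and 1233 CPM, with a median of 36, 24 and 26 UMIs. Bpifa3 (chr2:154130336-154138356, plus strand) measured 724, 428 and 589 CPM, with a median of 16, 7 and 12 UMIs. Glul was thus the most abundant of the trio and Klk1b3 the least in each library. Klk1b3 also shared 24.9% of the 31-base words at its 3' end with Klk1, at 60.9, 58.2 and 93.2 CPM, and the Glul exons overlap those of Teddm2 on the other strand, so a part of their reads is uncertain. In Cd52-trio cells a Klk1b3 UMI was seen in 35.0%, 9.6% and 24.3% of the cells against 97.3%, 92.4% and 97.8% of the chosen ones.

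The choice had a soft edge. The 10 cells nearest inside it led by 0.0027 to 0.0135 z-score units, and the 10 nearest outside missed it by 0.0017 to 0.026, 7 of them led by the Tex37 trio. The cells just inside had a median of 6.77% transition protein UMIs and those just outside 6.77%. Of the 776 cells, 537 (69.2%) led by at least 0.5 units and 56 by less than 0.1. The second trio was that of Tex37 in 324 cells (41.8%) and that of Defb19, a Sertoli cell gene, in 133.

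The working label calls these cells the latest condensing spermatids, and the marker lists were set against it. All 21 elongating spermatid markers were detected in each library. Their summed level was 256644, 249845 and 264526 CPM, close to the 248973, 235387 and 245762 CPM of Tex37-trio cells. Most of this sum came from Prm1, Prm2, Tnp1 and Tnp2, which held 22.01%, 21.6% and 23.3% of all UMIs. Within it, Tnp1 and Tnp2 were lower than in Tex37-trio cells, at 3.71% against 7.69% of the UMIs in the control, while the protamine share was higher. Of the 21, 10 were above and 11 below the Tex37-trio cells in all libraries. At least 2-fold lower were 5 of them, beside 4.63% of all compared genes. Of the 15 outside the 12 trios, 10 were above and 5 below, 1 of them by 2-fold. Prm1 and Prm2 alone gave a median of 18.6%, 17.9% and 19.0% of a cell's UMIs, against 14.3%, 13.3% and 14.3% in Tex37-trio and 9.71%, 9.30% and 10.1% in Faiml-trio cells. The 16 round spermatid markers summed to 671, 768 and 802 CPM, against 1134, 1306 and 1281 CPM in Tex37-trio and 2079, 1995 and 2067 CPM in Faiml-trio cells. The rule used some of these genes: 9 of the round and 6 of the elongating spermatid markers belong to the 12 trios. The other 7 round spermatid markers summed to 562, 652 and 679 CPM, against 997, 1165 and 1135 CPM in Tex37-trio and 1724, 1716 and 1780 CPM in Faiml-trio cells. Without Tssk1 as well, the sums were 392, 466 and 519 CPM against 472, 582 and 639 CPM in Tex37-trio cells, a smaller gap. The late spermatocyte markers did not follow this order: their 11 genes summed to 859, 1008 and 1010 CPM in the chosen cells, 704, 908 and 877 CPM in Tex37-trio and 673, 847 and 835 CPM in Faiml-trio cells, and Ybx2, a storage protein of messenger RNA in that list, gave 454, 465 and 441 CPM of the first sums. The elongating spermatid and protamine levels, which are largely the same counts, bear the name condensing spermatid-like cells. The order in time was not measured, and "latest" rests on the protamine and round spermatid levels alone.

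Markers of somatic and blood cells were low. The 18 Sertoli cell markers summed to 95.6, 41.3 and 93.8 CPM, with Sox9 at 0, 0 and 0.3 CPM and Fshr at 0 in all 3 libraries, while Defb19 and Cst12 stood at 31.6 and 15.9 CPM in the control. The 12 macrophage markers summed to 70.1, 65.6 and 94.3 CPM, 10 antibody cell and lymphocyte markers to 2.7, 14.3 and 79.0 CPM, 8 Leydig cell markers to 2.7, 3.1 and 4.0 CPM, and 6 red blood cell markers to 2.3, 1.4 and 2.1 CPM. Mitochondrial transcripts gave a median of 0.05%, 0.06% and 0.08% of a cell's UMIs. The antibody cell markers followed the number of leukocyte-like cells in the libraries, and their part in other results was not tested.

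The nuclear proteins came first in abundance. Prm1 measured 97312, 99209 and 111908 CPM and Prm2 85701, 79774 and 73896 CPM, so that the 2 protamine genes gave 18.3%, 17.9% and 18.6% of all UMIs. The transition protein genes followed: Tnp1 measured 19869, 20958 and 28844 CPM and Tnp2 17227, 16039 and 18448 CPM. Together these 4 genes held 22.01%, 21.6% and 23.3% of the RNA counted. Prm1, Prm2 and Tnp2 sit in a row on the minus strand of chr16, from 10787936 to 10805839, while Tnp1 is at chr1:73015074-73015909.

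The windows of 250 bases before the start of 4 of these genes are shown because 3 of them, Prm1, Prm2 and Tnp1, are the most abundant RNAs named above, and Klk1b3 names the cells. They come from RefSeq (GRCm38.p6) and read 5' to 3' on the gene's own strand. Capitals mark TGACNTCA on either strand, the core of the element bound by cyclic AMP responsive factors, and TATA within the last 50 bases; the TATA matches in Prm2 overlap. The windows lie at chr16:10796824-10797073 (minus) for Prm1, chr16:10792106-10792355 (minus) for Prm2, chr1:73015900-73016149 (minus) for Tnp1 and chr7:44197941-44198190 (plus) for Klk1b3.
Prm1: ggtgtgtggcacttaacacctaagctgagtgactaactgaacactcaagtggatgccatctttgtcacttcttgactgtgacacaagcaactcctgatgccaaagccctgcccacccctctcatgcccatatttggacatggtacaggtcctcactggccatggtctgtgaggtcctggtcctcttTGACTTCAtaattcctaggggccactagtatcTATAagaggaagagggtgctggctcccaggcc
Prm2: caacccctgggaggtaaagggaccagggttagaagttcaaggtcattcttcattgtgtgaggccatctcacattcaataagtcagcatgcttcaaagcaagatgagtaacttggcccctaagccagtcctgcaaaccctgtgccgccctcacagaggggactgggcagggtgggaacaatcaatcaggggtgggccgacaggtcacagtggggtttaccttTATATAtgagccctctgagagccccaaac
Tnp1: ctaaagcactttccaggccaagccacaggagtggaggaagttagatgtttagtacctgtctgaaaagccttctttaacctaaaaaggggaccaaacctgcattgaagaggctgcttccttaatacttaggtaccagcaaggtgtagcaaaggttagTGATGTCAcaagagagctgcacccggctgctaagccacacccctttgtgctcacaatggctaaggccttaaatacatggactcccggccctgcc
Klk1b3: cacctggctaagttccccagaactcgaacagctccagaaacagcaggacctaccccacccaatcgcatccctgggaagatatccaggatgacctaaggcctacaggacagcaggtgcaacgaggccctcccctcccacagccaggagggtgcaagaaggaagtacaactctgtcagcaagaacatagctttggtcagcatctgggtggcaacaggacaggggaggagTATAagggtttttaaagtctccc

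In these windows Prm1 held TGACTTCA from 64 to 57 bases before its start and TATA from 32 to 29 bases before it. Tnp1 held TGATGTCA, a match on the other strand, from 94 to 87 bases before its start. Prm2 held TATA from 29 to 26 bases and Klk1b3 from 23 to 20 bases before the start, and neither held TGACNTCA in the window. Over all 32851 RefSeq windows of this length, 7.49% held TGACNTCA and 9.08% held TATA in the last 50 bases. A match is a run of letters and not a measured binding site.

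The chosen cells formed a range from high to low transition protein RNA. The share of Tnp1 and Tnp2 in a cell's UMIs went from 0.503% to 10.5% in control cells, from 0.367% to 9.48% with hairpin 1 and from 0.438% to 10.4% with hairpin 2, with medians of 2.16%, 2.45% and 4.09%. At least 4% was found in 110, 78 and 136 cells, 1.5% to 4% in 75, 48 and 51, and less in 109, 85 and 84. In Tex37-trio cells 97.4% had at least 4%, and in Defb19-trio cells 55.5% had. These cuts were set after the values were seen, and 40 and 50 cells lay within 10% of the lower and the upper cut. The high range held 37.4%, 37.0% and 50.2% of the chosen cells, so the libraries were also compared range by range.

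Prm2 took the place of Prm1 as the leading RNA along this range. In the control, Prm1 was 112432 CPM in the high and 73314 CPM in the low range, and Prm2 went the other way, from 67709 to 106398 CPM. With hairpin 1, Prm1 measured 121842 and 65948 CPM and Prm2 62068 and 105516 CPM. With hairpin 2, Prm1 measured 122300 and 84628 CPM and Prm2 63887 and 93328 CPM. The sum of both genes barely moved in the control, from 18.0% to 18.0% of the UMIs, so the ratio differed while the total hardly did. Across cells, the ratio of Prm2 to Prm1 and the transition protein share had a Spearman coefficient of -0.90 over 294 control cells, -0.86 over 211 with hairpin 1 and -0.80 over 271 with hairpin 2. Both measures share the cell's counts and depth. The ratio had a coefficient of -0.07, 0.01 and 0.03 with UMIs per cell.

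Prm2 exceeded Prm1 in 228 of the chosen cells, or 37.8%, 32.7% and 17.7% of the libraries, and by more than 2-fold in 81. In the low range the median ratio was 1.38, 1.67 and 1.03, against 0.563, 0.493 and 0.510 in the high range and 0.576, 0.510 and 0.532 in Tex37-trio cells. The high range thus had a median ratio near that of the Tex37-trio cells. The hairpin 2 library had the lowest median ratio in the low range, and its Tnp1 level in all chosen cells was 1.45 times the control (1.44 to 1.46), next to 1.05 times with hairpin 1. The high range, cut on Tnp1 and Tnp2 themselves, held 37176, 41298 and 44861 CPM of Tnp1 and the low range 4646, 3605 and 4251 CPM.

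**Figure D2:**
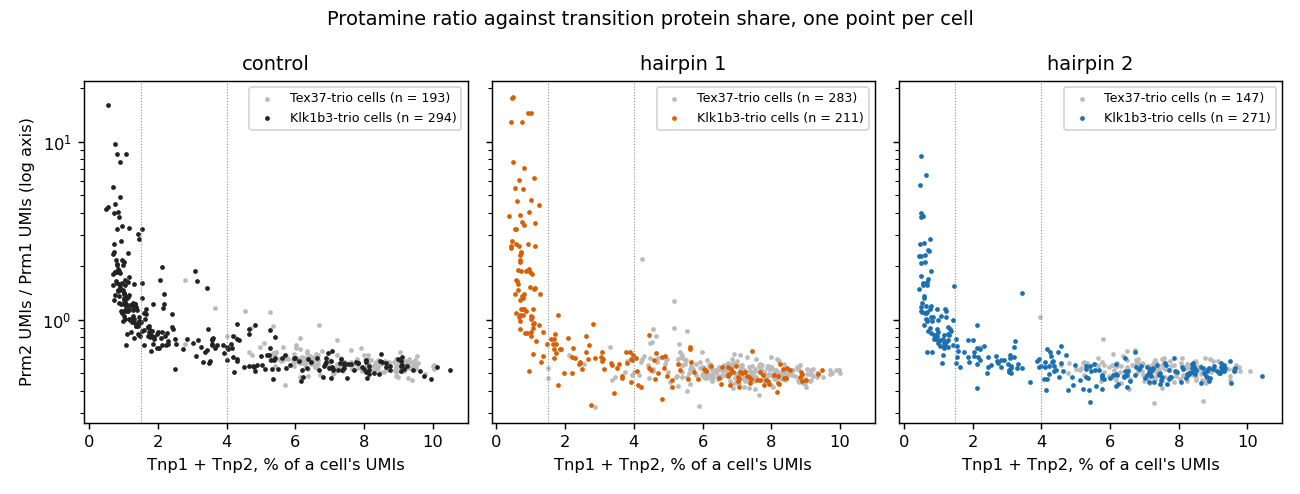
Ratio of Prm2 to Prm1 UMIs (log axis) against the share of Tnp1 and Tnp2 in a cell's UMIs (percent), 1 panel per library and 1 point per cell, for Klk1b3-trio and Tex37-trio cells. Tex37-trio cells gather at high shares with ratios near 0.5, and the Klk1b3-trio cells bend upward at low shares, with medians of 1.38, 1.67 and 1.03 under 1.5%.

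Between the low and the high range, 4433 genes passed a filter of a mean of 10 CPM and 30 UMIs, and folds were taken on the log2 scale after adding 1 CPM, which understates the folds of rare RNAs. None was at least 2-fold higher in the low range in all 3 libraries (0%), and 132 were lower (2.98%). At a fold of 1.5, 87 were higher and 360 lower. The median log2 difference of all compared genes was -0.22, -0.14 and 0.08. Because cells were split by Tnp1 and Tnp2, their own drops, 8.002, 11.5 and 10.6 times for Tnp1 and 5.05, 6.05 and 6.13 times for Tnp2, restate the split.

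Other RNAs were lower together with the transition proteins. Hmgb4, a high mobility group chromatin protein of the germ line, went from 4213, 4565 and 4453 CPM in the high range to 878, 646 and 743 CPM in the low range. Tex37, a testis gene and itself a trio marker of the neighbouring spermatids, went from 864, 858 and 982 CPM to 168, 125 and 155 CPM. Fam71f1 went from 442, 311 and 348 CPM to 90.7, 72.0 and 63.1 CPM. These genes were named because their folds were among the largest in every library, so the gap between the ranges follows from the pick. The antisense transcript Gm16231 was 6.54, 10.3 and 7.22 times lower in the low range. Spata19, a protein of the sperm mitochondria, was 2.24, 2.35 and 2.14 times lower, from 1165, 994 and 1018 CPM to 521, 422 and 476 CPM. Klk1, the tissue kallikrein related to Klk1b3, was 3.05, 3.94 and 3.23 times lower, while Klk1b3 itself was 1.34, 1.02 and 1.34 times higher in the low range.

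Some RNAs took a larger share in the low range, none of them by 2-fold in all libraries. Smcp, a cysteine-rich protein of the mitochondrial capsule, measured 8417, 7797 and 7589 CPM in the high range and 13581, 13692 and 11402 CPM in the low range. Oaz3, the testis antizyme that restrains polyamine synthesis, measured 4781, 4534 and 4519 CPM and then 8587, 9051 and 7750 CPM. Glul, a trio gene, measured 1290, 1111 and 1042 CPM and then 1975, 1947 and 1644 CPM. Each of the 3 had its low range above its high range in every library, by 1.502 to 1.996 times. The genes named here were in part picked for this fold, so the shared direction is a description. Gapdhs, the sperm glycolytic enzyme, was 1.53, 1.59 and 1.35 times higher in the low range, and Spem1, needed for shedding the cytoplasm, 1.71, 1.91 and 1.65 times. Tbc1d20, a regulator of membrane traffic, went from 396, 393 and 385 CPM to 738, 894 and 663 CPM. Bmp7, a growth factor of the BMP family, went from 30.1, 35.6 and 29.1 CPM to 64.4, 62.6 and 56.9 CPM.

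By gene list, the low range was read against the 2.98% background. Of 15 compared nuclear condensation genes, 3 were 2-fold lower and the list median was -0.70, -0.68 and -0.42 on the log2 scale. Of 14 compared fibrous sheath genes, 1 was lower, with medians of 0.02, 0.22 and 0.04. Of 12 mitochondrial sheath genes, 1 was 2-fold lower, 1 was above and 4 below the high range in all libraries, with medians of -0.28, -0.19 and 0.10. Of 21 outer dense fibre and head cytoskeleton genes, 2 were 2-fold lower, 7 were above and 10 below, with medians of -0.23, -0.03 and -0.02. Acrosome and egg binding genes had 1 of 24 lower, with medians of -0.43, -0.34 and 0.03, and ubiquitin and residual body genes 0 of 19, with medians of -0.19, -0.17 and 0.19. The nuclear list had the lowest median of these 6 in each library. It holds Tnp1 and Tnp2, which made the split, so its rank and its calls restate the split in part. No median of the list without them was taken. Of the 95 genes lower in the low range that had a RefSeq window, 22.1% held TGACNTCA, and of the 3331 compared genes with a window 12.5% did. TATA was found in 11.6% and 5.64%. A gene counted here when any of its windows held the motif, unlike the shares over all windows given above. Tnp1, on which the cells were split, is among the 95 and holds TGACNTCA.

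Tnp1 has an overlapping neighbour. The exons of 1700027A15Rik lie across those of Tnp1 on the opposite strand, and which strand was counted was not given in the sources used here. 1700027A15Rik measured 8060, 8864 and 7766 CPM in the chosen cells. From the high to the low range of the control it went from 6136 to 10391 CPM, while Tnp1 went from 37176 to 4646 CPM. The low range was above the high range for 1700027A15Rik and below it for Tnp1 in all 3 libraries.

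**Figure D3:**
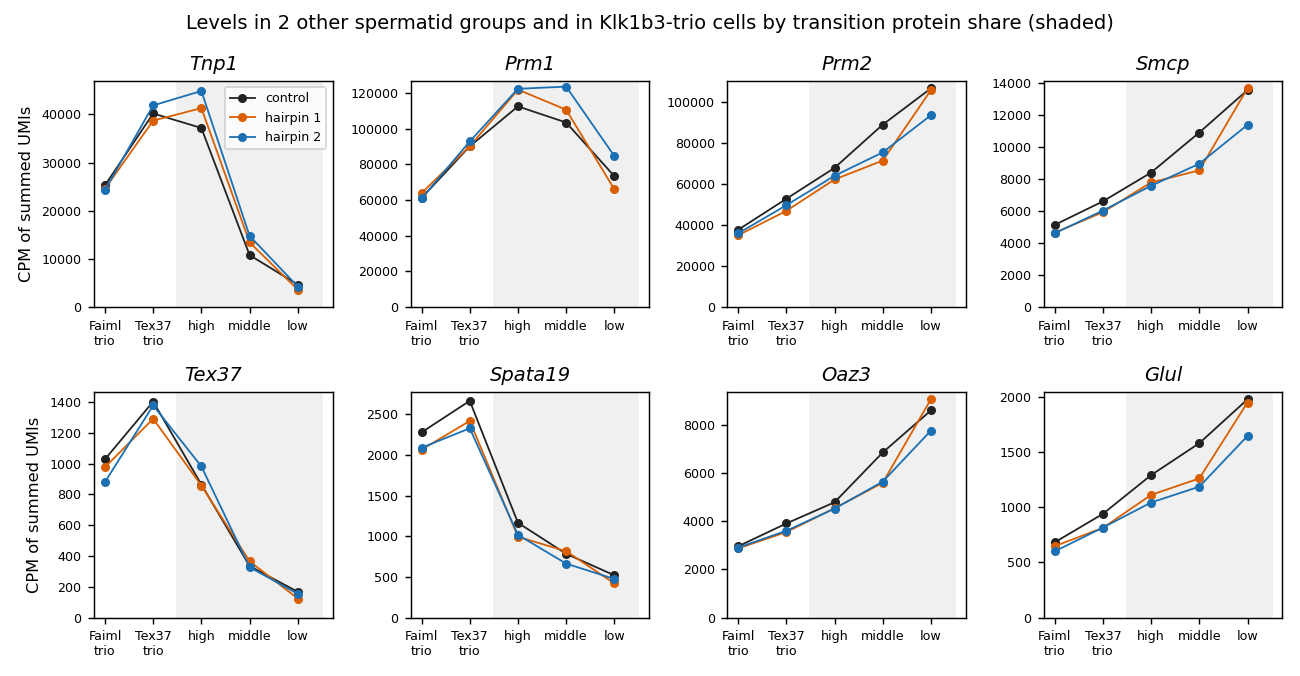
CPM of summed UMIs (linear axes from 0) in Faiml-trio cells, Tex37-trio cells and the high, middle and low transition protein ranges of the Klk1b3-trio cells (shaded), 1 line per library. In the control Tnp1 goes from 37176 to 4646 CPM between the high and low range and Prm2 from 67709 to 106398 CPM.

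The Klk1b3-trio cells were set beside the Tex37-trio cells as a whole. Of 4751 compared genes, 0 were 2-fold higher in all 3 libraries (0%) and 220 were lower (4.63%), with medians of -0.22, -0.19 and -0.20 on the log2 scale; median-of-ratios scaling gave 2 and 117, with medians of 0.06, 0.06 and 0.01. At a fold of 1.5, 44 were higher and 654 lower. The rule chose the cells, so nothing is read from these counts. After thinning to 7000 UMIs, a median of 1589, 1708 and 1748 genes was found in a Klk1b3-trio cell and 1870, 1966 and 1981 in a Tex37-trio cell, so fewer genes were seen at equal depth. Of the 132 genes lower in the low range, 44 were also among these 220. That is 33.3% of the 132 and 20% of the 220, beside the 4.63% of all compared genes given above. The low range is a part of the Klk1b3-trio cells, and 97.4% of Tex37-trio cells met the cut of the high range. Both comparisons thus partly set low against high transition protein RNA on shared cells. Shared calls are therefore in part built in, and nothing is read from this overlap.

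The RNAs that were lower had mixed roles. Cdyl, a chromodomain protein that takes part in histone replacement, measured 89.9, 69.9 and 47.8 CPM in the Klk1b3-trio and 357, 341 and 250 CPM in the Tex37-trio cells. Cypt1, of a family of cysteine-rich perinuclear theca proteins, measured 268, 193 and 196 CPM against 1075, 899 and 844 CPM. Rnf144a, a ubiquitin ligase gene, measured 8.7, 4.5 and 7.8 CPM against 38.8, 33.0 and 37.9 CPM. These 3 genes were named for their large folds in every library, so the gap between the groups follows from the pick. The linker histone Hils1 measured 798, 653 and 723 CPM against 2358, 2234 and 2020 CPM, and the sperm kinase Tssk1 was 3.09, 3.14 and 3.10 times lower in the chosen cells. Sqrdl, a mitochondrial sulfide oxidase, was 4.07, 3.90 and 3.54 times lower, and the pyruvate carrier gene Mpc2 2.33, 2.24 and 2.10 times.

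Higher in the Klk1b3-trio cells, though not by 2-fold in all libraries, were the trio genes and some others. Bpifa3 was 1.77, 1.88 and 1.76 times its level in Tex37-trio cells and Klk1b3 1.97, 1.62 and 1.84 times, as the choice fixed. Oaz3 was 1.68, 1.80 and 1.56 times, Smcp 1.62, 1.70 and 1.47 times and Spata3 1.78, 1.84 and 1.55 times. Gab2, a signalling adaptor, measured 92.6, 86.9 and 80.4 CPM against 50.3, 44.6 and 48.5 CPM. Akap4, the main scaffold of the fibrous sheath, was even, at 1779, 1334 and 1329 CPM against 1784, 1474 and 1420 CPM. Gpx4, the selenoenzyme of the sperm midpiece, was even too, at 1.04, 1.08 and 1.06 times. The lists of sperm structures were mixed: 6 of 14 fibrous sheath genes were above and 6 below the Tex37-trio cells in all libraries, 7 and 11 of 21 outer dense fibre and head cytoskeleton genes, and 2 and 8 of 12 mitochondrial sheath genes.

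Related genes of the trio's families were uneven. Klk1b8 measured 1091, 961 and 1107 CPM, Klk1b26 191, 131 and 199 CPM, and Klk1b9 350, 85.9 and 351 CPM. Klk1b9 was thus far lower with hairpin 1, at 0.245 times the control (0.219 to 0.274), and level with it with hairpin 2 (0.947 to 1.06). Klk1b11 had no UMI and Klk1b22 at most 0.137 CPM. Of the other 13 measured genes of the Bpif family, Bpi was the highest, at 5.9, 7.2 and 7.0 CPM. Bpifa3 was the sole member of its family to pass the filter.

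Against the Defb19-trio cells, which carry Sertoli cell genes, 5445 genes were compared. In all libraries 0 were 2-fold higher (0%) and 742 lower (13.6%), with medians of -0.64, -0.44 and -0.55. This one-sided split depends on the scaling. Median-of-ratios scaling turned the medians to 0.24, 0.28 and 0.16 and gave calls in both directions (counts below). All 12 compared mitochondrially encoded genes were among the 742 lower, and so were all 11 compared Sertoli cell markers. Of these, Defb19, Cst9 and Cst12 chose the Defb19-trio cells; the other 8 were lower too, with medians of -4.17, -4.08 and -3.03. Defb19 itself, a beta-defensin of Sertoli cells, restates the choice and measured 31.6, 12.2 and 31.8 CPM against 818, 386 and 495 CPM. The elongating spermatid markers were close, with 0 of 21 at 2-fold and medians of 0.12, 0.24 and 0.20. Markers of earlier germ cells were lower too: all 6 compared early spermatocyte markers, with medians of -3.02, -2.38 and -2.48, and both compared spermatogonia markers. Tex101, Gml2 and Sycp3 of the early spermatocyte list are trio genes, which the rule used. Without them 3 were compared and all 3 were lower, with medians of -2.88, -2.09 and -1.89. The mitochondrially encoded genes had medians of -2.66, -2.01 and -1.99. Some chosen cells were near them: 37 had a z-score over 1 for the Defb19 or Cd52 trio, 24 of them in the control, and 39 had more than 4500 genes.

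With the hairpins, 4494 genes were compared in the chosen cells. At least 2-fold higher with both hairpins were 111 (2.47%) and lower 10 (0.223%). Both hairpins were set against the same control library, so the control's own deviations enter both folds. The median log2 fold of all compared genes was 0.11 and 0.14, and with median-of-ratios scaling, which moves these medians to -0.12 and -0.15, the split was 31 higher and 22 lower. With 1 library a group, neither split can be set against a spread between replicates. How many of all compared genes lay above or below the control with both hairpins was not counted. Counts of that kind in the gene lists therefore have only the medians of all genes beside them. Hairpin 1 alone had 203 genes 2-fold higher and 50 lower, and hairpin 2 alone 211 and 41. Among 1878 genes with a mean of at least 50 CPM, 25 were higher and 2 lower, and among 1173 with at least 100 CPM, 12 and 1, so most calls were of rare RNAs.

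Of the 19 compared ubiquitin and residual body genes, 2 were 2-fold higher with both hairpins, against 2.47% of all genes, 7 were above and 7 below the control with both. March11, a ubiquitin ligase of spermatids, was called at 89.9, 194 and 195 CPM but not under median-of-ratios scaling (log2 0.87 and 0.81). The list median was 0.07 and -0.12 (-0.17 and -0.42 under median-of-ratios scaling).

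RNAs higher with both hairpins had mixed roles. AA467197 measured 110, 285 and 259 CPM, and Mt2, a metal-binding metallothionein, measured 42.0, 150 and 105 CPM. Nxt1, a cofactor of messenger RNA export, measured 22.4, 57.0 and 57.0 CPM. Prdx5, a peroxidase against oxidative damage, measured 10.99, 33.9 and 35.0 CPM. In these 4 genes the 2 hairpin libraries were closer to each other than to the control. That the control was the lowest follows from the call itself. Atp6v1e2, a testis subunit of the proton pump that acidifies the acrosome, measured 8.0, 42.2 and 52.2 CPM. Pabpc6, a poly(A)-binding protein, measured 4.9, 17.7 and 17.2 CPM, and Tra2b, a splicing factor, 8.4, 28.9 and 26.7 CPM. The lincRNA Gm34732 measured 6.5, 61.6 and 39.1 CPM and 1700120B22Rik 8.2, 85.2 and 45.4 CPM; the exons of the latter overlap those of Herc4 on the other strand, at 19.0, 15.04 and 17.7 CPM.

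Jchain, the joining chain of antibodies, had the largest shared fold among the genes higher with both hairpins and belongs to another cell type. It measured 0.96, 12.4 and 59.2 CPM, from 7, 52 and 374 UMIs. In Cd52-trio cells it measured 512, 17454 and 12022 CPM, and over all cells 5.8, 521 and 925 CPM. In Tex37-trio cells it measured 1.4, 11.6 and 69.4 CPM. The chosen cells thus followed the order of the whole libraries, control, hairpin 1, hairpin 2, and the part of free RNA was not tested.

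Lower with both hairpins were 10 genes. Col22a1, a collagen gene, measured 253, 70.2 and 57.3 CPM, or 0.278 times (0.245 to 0.314) and 0.227 times (0.202 to 0.254) the control, and was called under all 19 other settings. Tap1, a peptide transporter of antigen presentation, had 276 UMIs in control cells, 0 with hairpin 1 and 4 with hairpin 2. It was at least 53.0-fold lower with hairpin 1, from a floor of 3 counts over the library's sum, and 0.017 times the control (0.005 to 0.043) with hairpin 2. Its exons overlap those of Psmb9 on the other strand, which was at most 1.27 CPM. Aacs, an enzyme that activates acetoacetate, measured 30.6, 2.4 and 1.3 CPM, and Gm13976 26.7, 1.7 and 3.3 CPM. Tap1, Aacs and Gm13976 were at 3.3 CPM or less with both hairpins and at 26.7 CPM or more in the control. In Cd52-trio cells Tap1 measured 43.4, 59.0 and 62.4 CPM, so there it was not lower with the hairpins. The control value there rests on 20 cells with 345615 UMIs in all, so its counting error is wide.

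The other 6 were AK157302, Rpl29, Tmem239, Cntn1, Tpm3 and Rsph3b, at 20.5 to 105 CPM in the control. AK157302 measured 105, 28.9 and 31.2 CPM, but shares 84.3% of the 31-base words at its 3' end with Isca1, which measured 1151, 1153 and 1213 CPM. Rsph3b measured 20.5, 7.6 and 8.7 CPM and shares 59.5% with Rsph3a, at 30.8, 34.4 and 32.0 CPM. The ribosomal protein gene Rpl29 measured 49.1, 20.3 and 19.3 CPM and shares 38.8% with Gm13841. How such reads were divided was not given in the sources used here, and these 3 values are uncertain.

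**Figure D4:**
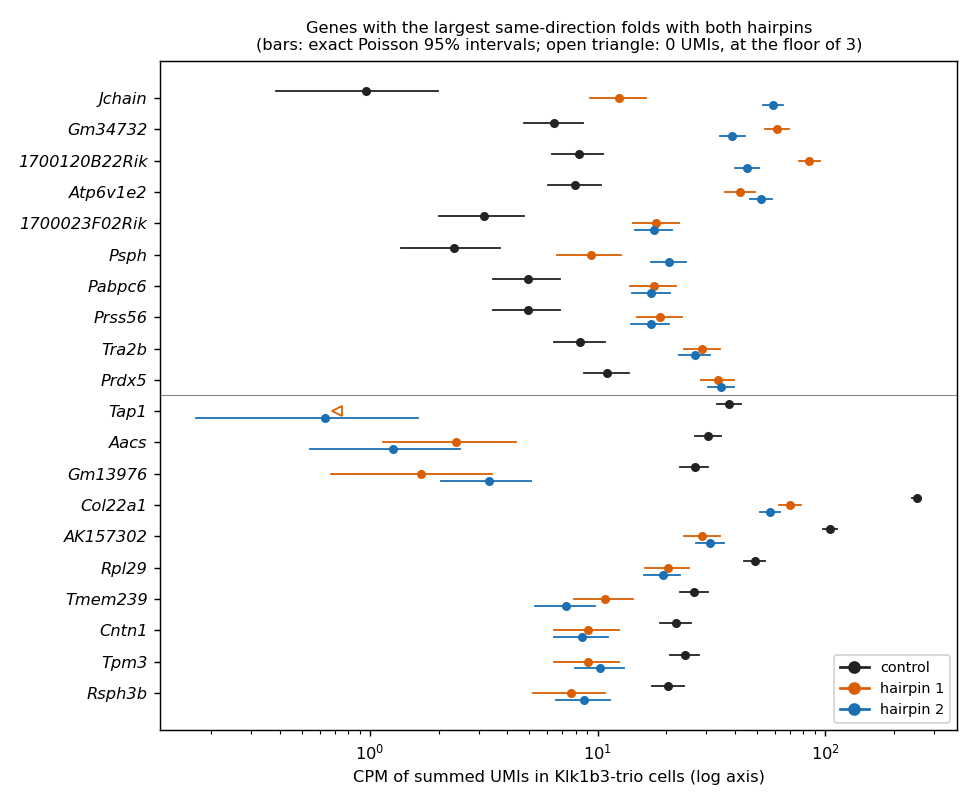
CPM of summed UMIs (log axis) in Klk1b3-trio cells for the genes with the largest folds in the same direction with both hairpins, 1 point per library with exact Poisson 95% intervals, and an open triangle at the floor of 3 counts for a library with 0 UMIs. Jchain goes from 0.96 to 12.4 and 59.2 CPM, and Tap1 from 37.9 to 0 and 0.6 CPM.

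Few of the 111 and 10 were called whatever the setting: in all 19 other settings, 1 gene was higher and 1 lower. The median gene was called in 13 of the 19 settings among the higher and in 17 among the lower. In at least 18 of the 19 other settings, 11 genes were higher, among them 1700023F02Rik, 1700029P11Rik, 1700120B22Rik, AA467197, Atp6v1e2, Gm34732, Jchain, Nxt1, Pabpc6 and Prdx5. In as many settings, 4 were lower: AK157302, Tap1, Tmem239 and Col22a1. The transition protein ranges gave 175 higher and 12 lower in the low, 509 and 15 in the middle and 47 and 20 in the high range. In all 3 ranges 14 genes were called higher and 5 lower.

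The lists of sperm structures gave few calls with the hairpins, beside the 2.47% and 0.223% of all genes. No nuclear condensation gene of 15 was 2-fold in either direction, with list medians of 0.00 and 0.15 (-0.24 and -0.14 under median-of-ratios scaling). Prm1 was 1.02 times the control with hairpin 1 and 1.15 times with hairpin 2, and both turn to lower values under median-of-ratios scaling (log2 -0.21 and -0.10). Prm2 was 0.931 times (0.927 to 0.935) and 0.862 times (0.859 to 0.866). Of 24 acrosome and egg binding genes, 16 were above the control with both hairpins and 2 at 2-fold, Zpbp2 and Adam1b, with medians of 0.12 and 0.38; under median-of-ratios scaling 9 were above and 10 below, with medians of -0.11 and 0.08. Zpbp2, an acrosomal protein that binds the egg coat, measured 52.8, 107 and 117 CPM, and Adam1b, a surface protein of the ADAM family, 7.8, 19.1 and 18.2 CPM. The call itself makes the control the lowest library in both genes. Without cells of over 4500 genes, neither was at 2-fold with hairpin 1 (log2 0.97 for Zpbp2 and 0.88 for Adam1b). Neither gene was called under median-of-ratios scaling.

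Fibrous sheath genes were below the control with both hairpins in 9 of 14, none by 2-fold, with medians of -0.09 and -0.17, and in 10 under median-of-ratios scaling. Akap4 measured 1779, 1334 and 1329 CPM and Gapdhs 5830, 4876 and 4404 CPM. All 10 compared mitochondrially encoded genes were above the control with both hairpins, at medians of 0.70 and 0.62 (0.47 and 0.33 under median-of-ratios scaling), and 1 was at 2-fold, mt-Nd3, at 4.7, 15.04 and 13.4 CPM. Without cells of over 4500 genes, mt-Nd3 no longer passed the filter, none of the 9 genes still compared was called, and the medians were 0.69 and 0.34. The summed level of the 13 mitochondrial genes was 1582, 2517 and 2311 CPM in the chosen cells. These sums exceed the median share per cell given earlier, so they drew more on some cells than on others. In the Cd52-trio cells, whose number also differed between libraries, the sum was 22731, 22082 and 22652 CPM. The part of Cd52-trio RNA in the chosen cells was not tested. In the high range of transition protein RNA the sum was 2164, 2307 and 1872 CPM, so hairpin 2 was below the control there, and in the low range 1118, 1944 and 3029.8 CPM. Late spermatocyte genes were above the control with both hairpins in 5 of 7, at medians of 0.62 and 0.91 (0.39 and 0.62 under median-of-ratios scaling), and Aurka, a mitotic kinase, was at 2-fold, at 12.1, 30.8 and 27.2 CPM. Aurka and Ccna1 are trio genes, which the rule used; of the other 5, 3 were above and none was at 2-fold, with medians of 0.62 and 0.71. Of 15 translational storage genes, 9 were above, with medians of 0.45 and 0.34 (6, 0.22 and 0.05 under median-of-ratios scaling), and Pabpc1, the main poly(A)-binding protein, measured 121, 193 and 237 CPM. These last 3 lists were above the median of all genes with both hairpins, and none had more than 1 gene at 2-fold. That median was itself above the control, at 0.11 and 0.14, and below it under median-of-ratios scaling.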

How the data were processed

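Germ cells of 3 libraries, 1 per group, were measured by droplet sequencing of RNA 3' ends. The authors deposited natural log values per cell and gene: UMIs were divided by the cell's total, multiplied by 10000, raised by 1 and logged. Per the submitters' processing notes, Cell Ranger 1.3.1, Seurat 2.0.0 and mm10 were used. Annotation, counted strand and cell filter were not given in the sources used here. In all, the tables hold 22843 genes, and no cell had fewer than 7018 UMIs or 1637 genes. Of 20140203 non-zero values, 100% came out as whole UMIs within 0.01. No doublet caller was run, so cells with more than 4500 genes were left out in an alternative. The hairpin 1 and 2 columns were matched to their samples by the last digit of the column names alone; if it misleads, the 2 hairpins change places.

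UMIs were summed over the chosen cells of each library and scaled to CPM by the total. Genes with a mean of at least 10 CPM and 30 UMIs were compared, and a log2 fold of CPM plus 1 counted from 2-fold in all libraries compared. Named genes were Gm4665, Osbpl10, Ip6k1, the trio, the 15 most abundant genes, the top 10 per direction with the hairpins, 12 against Tex37-trio and 6 against Defb19-trio cells by their smallest fold, and up to 5 members of each of 26 lists; a few more are named where a sentence turns on them. Some results that these rules name are not reported here. The members and lists were chosen with earlier results of these data known. The transition protein ranges, their comparison and marker lists without trio genes were added after the values were seen.

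Positions came from GENCODE vM21 (197 of 202 named genes matched) and promoter windows from RefSeq. In simulated counts for the comparison of hairpins with the control, with 4413 genes compared, 50 of 50 genes raised 4-fold and 47 of 50 raised 2.5-fold were called. Of 50 genes lowered 4-fold, 30 passed the filter and were called; of 50 lowered 2.5-fold, 43 passed and 40 were called. None of 4240 unchanged genes was called. The filter thus keeps fewer lowered genes than raised ones. The simulated counts held counting error alone, with no difference between libraries beyond the set folds and the totals. They therefore give no error rate for the calls in the measured cells. Tools were Python 3.11.15, numpy 2.4.6, scipy 1.17.1, pandas 2.3.3 and matplotlib 3.10.9.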

Additional observations from a re-analysis of the deposited data

How the results depend on the processing

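No paired analysis was possible because each group was 1 library. Settings for the transition protein ranges and for cells of over 4500 genes were chosen after seeing the data; causes below were not tested unless named. Asking for a lead of 0.5 z-score units left 15.5%, 7.62% and 9.88% of the libraries as members, and z-scores within each library gave 15.5% with hairpin 1. The 111 genes higher with both hairpins became 178 with z-scores within libraries, 27 with scores after thinning, 31 with median-of-ratios scaling, 4 with ln differences of 0.5, 38 with a pseudocount of 5 CPM, 312 without a filter, 206 with thinned sums, and 175, 509 and 47 in the low, middle and high range. The 10 lower ones became 22 (median-of-ratios), 1 (ln), 48 (no filter) and 20 (high range). Against Tex37-trio cells, the 0 higher became 2 (median-of-ratios) and 1 (ln), and the 220 lower became 379 with the lead of 0.5, 117 (median-of-ratios) and 94 (ln). Against Defb19-trio cells, the 0 higher became 447 (median-of-ratios), 2 without the 20 most abundant genes in the total, 32 (ln), 1 (mean cell CPM), 2 (no filter) and 5 (thinned sums), and the 742 lower became 249 (median-of-ratios), 24 (ln), 2100 (no filter, more genes compared) and 412 without cells of over 4500 genes. Between the ranges, the 0 higher became 1 (thinned sums) and 4 with cuts at 1% and 5%. Of 326 folds of named genes, median-of-ratios scaling moved 227 beyond their counting interval; no called fold changed sign under the 5 settings tried for named genes. With 1 library a group, depth sets the counting error only.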

Other observations

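In the Klk1b3-trio cells, 4 of 4494 compared genes were 2-fold from the control in opposite directions with the 2 hairpins; 3 are given here, named after their values were seen. Yjefn3 measured 20.5 CPM in the control, 0.716 CPM with hairpin 1 and 203 CPM with hairpin 2. The non-coding Sox5os3 measured 7.01, 0.477 and 31.5 CPM. H2-Ab1, an antigen-presenting molecule of leukocytes, measured 15.9, 5.49 and 34.5 CPM. The choice of opposite directions itself places the control between the hairpin libraries in each of these 3 genes.

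Gm553, a lincRNA at chr1:52522902-52582679, was among the RNAs that stood highest against the Tex37-trio cells, at 2.29, 1.88 and 1.78 times their level. It was also far from the control with 1 hairpin only: the Klk1b3-trio cells held 305 CPM in the control, 404 CPM with hairpin 1 and 80.5 CPM with hairpin 2, or 0.264 times the control (0.239 to 0.291). Klk1b9, in contrast, was at 0.245 times the control with hairpin 1 and level with it with hairpin 2. In Tex37-trio cells Gm553 measured 133, 215 and 45.3 CPM, again lowest with hairpin 2, and Klk1b9 218, 64.6 and 213 CPM, again lowest with hairpin 1.

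Stress and cell death genes were few among those compared. Of 21 listed, 5 passed the filter, and 0 were 2-fold from the control with both hairpins; 3 were above and 1 below the control with both, but 1 above and 4 below under median-of-ratios scaling. Dnajb1, a heat shock chaperone, measured 265, 284 and 313 CPM. Bcl2l11, which promotes apoptosis, measured 102, 102 and 83.2 CPM, and in Tex37-trio cells 240, 251 and 221 CPM. Hspa2, the chaperone of meiotic and haploid germ cells, measured 89.0, 171 and 170 CPM, just short of 2-fold with both hairpins. Cox8c and Cox6b2, testis forms of cytochrome oxidase subunits, measured 361, 607 and 696 CPM and 251, 385 and 437 CPM, with the control lowest in both.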
